A study of Homo sapiens with 5 samples.

Results

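The genes described here are those named VPS, SNX or CHMP, which encode much of the machinery that sorts proteins and lipids in endosomes, together with the VPS13 lipid transfer genes. They were chosen by name (VPS with a number and at most 1 letter from A to D, SNX with a number, CHMP with a digit and at most 1 letter from A to C) and by depth, with at least 10 counts in at least 2 of the 5 libraries. Of 73 rows with such names in a table of 57221 rows, 64 met the count rule, namely 30 VPS, 24 SNX and 10 CHMP genes. RNA was sequenced from NK92MI, a line of human natural killer (NK) cells that carries an introduced IL2 gene. The cells were cultured for 48 h with 10 µM UNC1999 (3 libraries) or with DMSO (2 libraries), so that the line was common to both groups. The treatment label of the DMSO samples names no time, and 48 h was taken for both groups. UNC1999 inhibits EZH2 and EZH1, the methyltransferases of polycomb repressive complex 2, and the comparison asks which genes respond to it. No label names separate cultures for the libraries, and the p-values therefore measure spread between these samples that may be technical.

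Endosomes receive proteins taken up from the cell surface and either return them or send them to lysosomes. Retromer and the sorting nexins (SNX proteins, which bind membrane lipids) form carriers that return cargo, the HOPS, CORVET and GARP complexes tether membranes before they fuse, and the ESCRT complexes with the CHMP filaments and the VPS4 ATPases bend and cut membrane to make the inner vesicles of late endosomes. The VPS13 proteins are long tube-like proteins that carry lipids between membranes lying close to each other. In NK cells these pathways serve the turnover of surface receptors and the lysosome-related granules that hold perforin and granzymes.

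Counts assigned to genes came to between 8442908 and 8748106 per library, and the 64 genes held 0.459%, 0.442% and 0.460% of them in UNC1999 and 0.417% and 0.419% in DMSO. UNC1999 replicate 2 stood apart, with a chi-square per degree of freedom of 8.10 against replicate 1 and 9.49 against replicate 3, while replicates 1 and 3 gave 1.87 and the DMSO libraries 3.30. All 8 NK cell markers had 10 or more counts in every library. CD3D, CD3G, CD4 and CD8B of the 7 T cell markers were listed at 0, as were the B cell marker MS4A1 and LYZ and FCN1 of 5 monocyte markers. CD3E and TRAC of the T cell list, the B cell marker PAX5 and CSF1R of the monocyte list had 10 or more counts in every library. Summed counts were 5968 to 6584 in UNC1999 and 6079 to 6670 in DMSO for the T cell list, and 62 to 73 in UNC1999 and 53 to 68 in DMSO for the monocyte list. In bulk RNA fewer cells of a kind and less RNA per cell cannot be told apart.

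All 4 VPS13 genes rose in UNC1999, and VPS4B, VPS36 and VPS8 rose with them. SNX3, 4 of 10 CHMP genes and 3 of 8 genes grouped with HOPS and CORVET were called lower. With trends in GC content and transcript length taken out, 5 of the 10 and 1 of the 8 were called lower, beside 19.0% of all genes. Of the 64 genes, 9 were called higher and 11 lower (edgeR quasi-likelihood test, Benjamini-Hochberg adjusted p under 0.05 over 13075 genes), against 15.7% of all genes tested called higher, 19.5% called lower and 35.2% called in either direction. The shares of the family, 14.1% and 17.2%, were near these backgrounds, so the counts alone are no result about endosome genes. With a change of at least 1.5-fold asked as well, 6 were higher and 2 lower, beside 8.99% and 5.97% of all genes. With at least 2-fold asked, 3 were higher, beside 2.56%, and these were VPS13A, VPS13B and VPS13C. The median log2 fold change of the 64 genes was 0.019, and that of all genes tested was -0.012. Counts of calls moved with scaling and with single libraries. Without normalization factors 19 were called higher and 8 lower, and the median log2 fold change of all genes was then 0.091, while upper-quartile factors gave 16 higher and 8 lower. Leaving out UNC1999 replicate 2 gave 16 higher and 13 lower, where VPS28, VPS51, CHMP1A, CHMP6, SNX5, SNX10, SNX17 and SNX32 were added to the genes called higher, SNX2 was lost from them, and VPS26B and SNX22 were added to those called lower. Leaving out DMSO replicate 1 gave 7 and 4, and leaving out DMSO replicate 2 gave 6 and 7. The CPM values (read counts scaled to library size with TMM factors) of the groups did not overlap for 20 genes that were higher and 18 that were lower in UNC1999, or 31.2% and 28.1%, beside 24.2% and 30.4% of all genes tested.

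**Figure D1:**
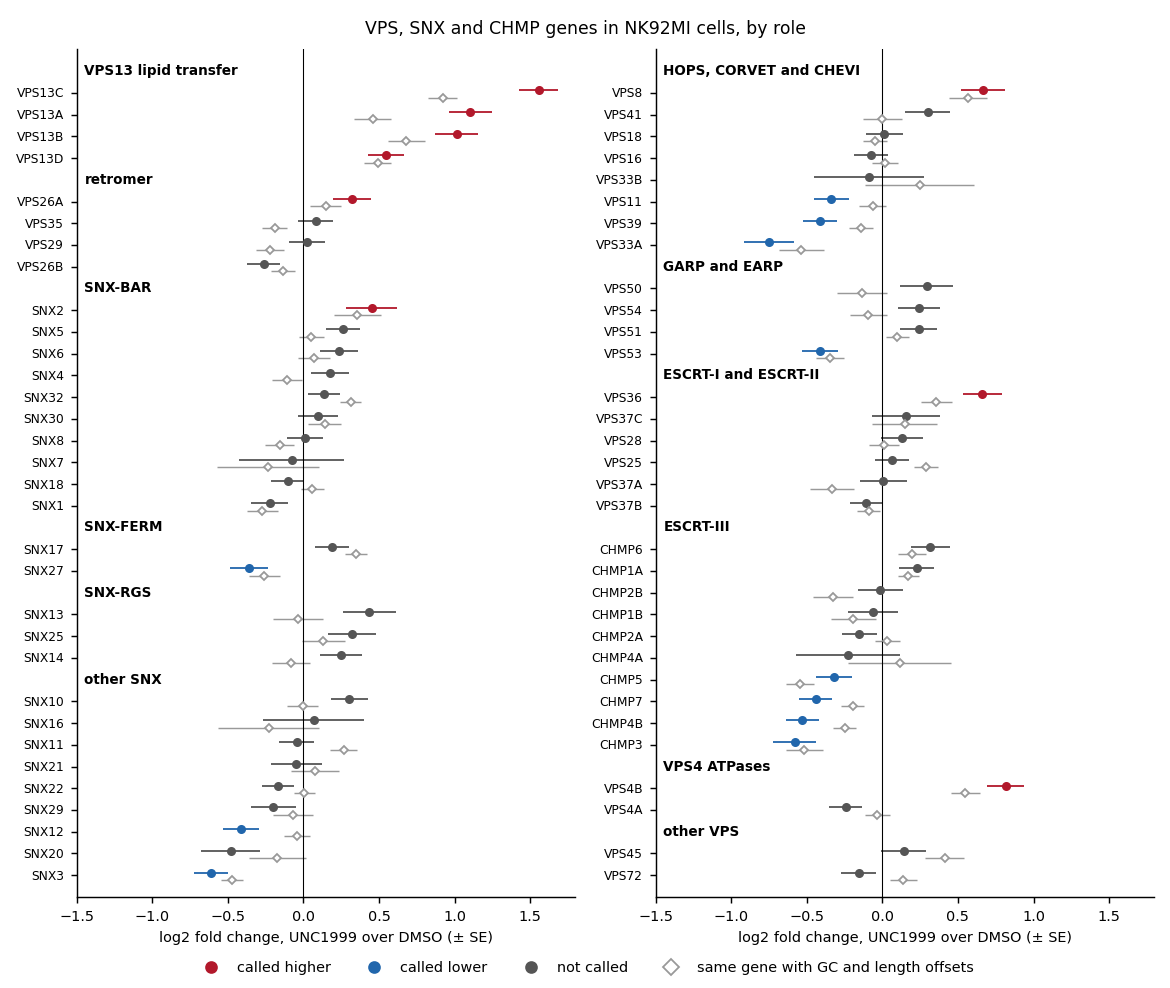
Log2 fold change of UNC1999 over DMSO (x axis) for each of the 64 genes, grouped by role, with its standard error. Filled circles are the edgeR fit, coloured where called, and open diamonds the same gene in the fit that removes trends with GC content and transcript length; all 4 VPS13 genes lie above 0 in both.

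Fold changes varied with the GC content of transcripts over all genes tested, and those of the family did so too. Among the 22 family genes with the lowest GC content (at most 41.5% in the longest GENCODE 29 transcript), 5 were called higher and 1 lower, with a median log2 fold change of 0.25. All genes tested in that GC range had a median of 0.36, with 43.7% called higher and 6.63% lower. Among the 21 genes of middle GC content 4 were called higher and 7 lower, with a median of -0.20, where all genes tested in the range had a median of -0.21, with 11.1% called higher and 34.8% lower. Among the 21 genes of highest GC content 3 were called lower (14.3%) and the other 18 were not called, where all genes tested in the range had 6.08% called higher and 13.0% lower. Across the 64 genes the log2 fold change correlated with GC content at a Spearman rho of -0.38 and a Pearson r of -0.34. With transcript length the Spearman rho was 0.19, and with log2 transcript length the Pearson r was 0.39. These values describe genes measured in the same 5 libraries. A second fit therefore took out smooth trends with GC content and length in each library, and its values are given below as values with offsets. With offsets 12 of the 64 genes were called higher and 9 lower, beside 15.2% and 19.0% of 11247 genes (34.2% in either direction). Of the 9 genes called higher without offsets 7 were called higher again, and of the 11 called lower 7 were called lower again. The share of calls kept with offsets was not computed over all genes, so these counts are no result about the family. A response that runs with GC content or length would be removed with the trends, and the part of these trends in the results was not tested further.

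**Figure D2:**
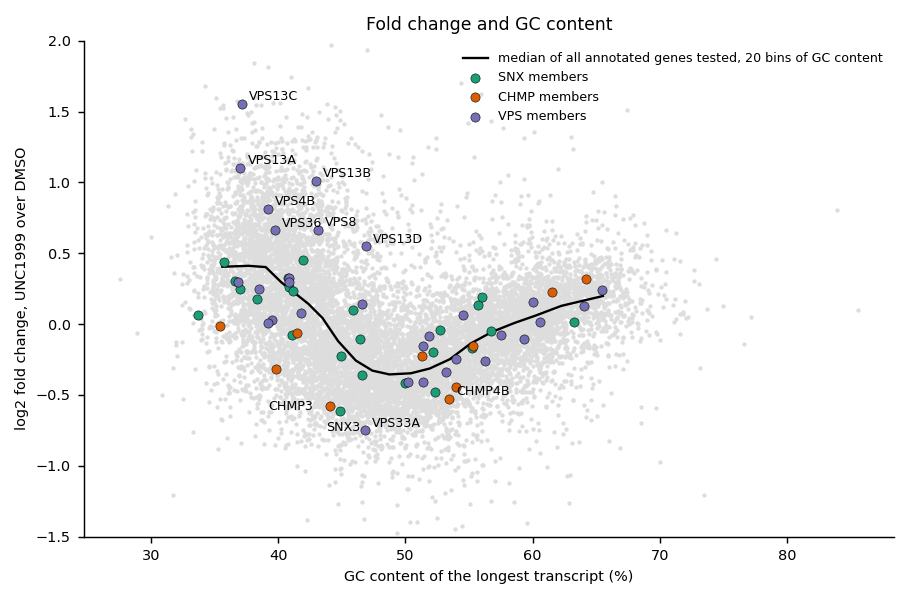
Log2 fold change of UNC1999 over DMSO (y axis) against the GC content of the longest transcript in percent (x axis). Grey points are annotated genes tested, the line is their median in 20 bins and coloured points are the 64 family genes; VPS13A to VPS13D, VPS4B, VPS36 and VPS8 lie above the line and VPS33A, SNX3 and CHMP3 below it.

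The VPS13 genes gave the 3 highest fold changes of the family. VPS13C, whose protein bridges the endoplasmic reticulum to late endosomes and lysosomes, had 82.7, 68.02 and 77.7 CPM in UNC1999, against 25.7 and 26.04 CPM in DMSO. Its lowest UNC1999 library was replicate 2, and that library still lay far above both DMSO libraries. The means were 76.1 ± 7.45 CPM in UNC1999 (SD, n = 3) and 25.9 ± 0.2396 CPM in DMSO (SD, n = 2). The log2 fold change was 1.56 ± 0.13 (SE), at rank 42 of the 13075 genes tested (adjusted p by edgeR = 8.64e-11). With offsets it was 0.92 ± 0.10 (adjusted p by edgeR = 2.92e-09). VPS13A, the gene mutated in chorea-acanthocytosis, had 29.9, 27.8 and 27.3 CPM in UNC1999 and 13.04 and 13.3 CPM in DMSO. The groups were well separated, with a log2 fold change of 1.10 ± 0.14 (adjusted p by edgeR = 2.47e-07) that was 0.46 ± 0.12 with offsets (adjusted p by edgeR = 0.00375).

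VPS13B, the gene mutated in Cohen syndrome, had 36.25, 29.9 and 36.5 CPM in UNC1999, against 16.1 and 17.7 CPM in DMSO. UNC1999 replicate 2 was again the lowest of its group, and the groups did not overlap. The log2 fold change was 1.01 ± 0.14 (adjusted p by edgeR = 7.6e-07), and 0.68 with offsets (adjusted p by edgeR = 3.45e-05). VPS13D, which acts at mitochondria and peroxisomes, had 57.25, 57.8 and 60.4 CPM in UNC1999 and 41.97 and 38.05 CPM in DMSO. Here too every UNC1999 library lay above both DMSO libraries, with a lower fold change than in the other VPS13 genes (0.55 ± 0.12, adjusted p by edgeR = 0.000377). With offsets its value was 0.49 ± 0.089 (adjusted p by edgeR = 4.37e-05), and VPS13A then had the lowest value of the 4. These 4 genes were called higher in each of 16 alternative fits, which included the 5 with a library left out. Together they held 4.603%, 4.36% and 4.44% of the counts of the family in UNC1999 and 2.21% and 2.18% in DMSO.

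The VPS13 transcripts are the longest of the family and differ in base composition. The longest transcripts in GENCODE 29 had 15320 bases for VPS13A, 14094 for VPS13B, 14579 for VPS13C and 16357 for VPS13D, against a median of 3356 bases over the 64 genes. GC content was 37.04% in VPS13A, 42.99% in VPS13B, 37.1% in VPS13C and 46.9% in VPS13D, and VPS13D, with the highest of these, was the one whose value moved least with offsets. In GENCODE 29 (GRCh38, not the build hg19 of the submitters' notes) they lie on chromosomes 9, 8, 15 and 1, from VPS13A to VPS13D. VPS13A had 265, 255 and 240 counts in UNC1999 and 105 and 112 in DMSO. It shares 178 exon bases with its antisense gene VPS13A-AS1, which had 10, 7 and 12 counts in UNC1999 and 5 and 2 in DMSO.

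The bases just before the start of VPS13A, VPS13C and VPS13D are shown because these genes rose together. Each window is the 250 bases before the RefSeq start on GRCh38.p14, written 5′ to 3′ on the strand of the gene, with CCAAT boxes (CCAAT or its complement ATTGG) and GC boxes (GGGCGG or CCGCCC) in capitals. VPS13A is at chr9:77177284-77177533 on the plus strand, VPS13C at chr15:62060448-62060697 on the minus strand and VPS13D at chr1:12229780-12230029 on the plus strand.
VPS13A: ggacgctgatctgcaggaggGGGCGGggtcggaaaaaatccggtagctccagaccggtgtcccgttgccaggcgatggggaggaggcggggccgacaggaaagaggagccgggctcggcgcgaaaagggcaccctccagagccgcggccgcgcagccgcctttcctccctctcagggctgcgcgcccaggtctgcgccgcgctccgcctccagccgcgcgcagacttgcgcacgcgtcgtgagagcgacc
VPS13C: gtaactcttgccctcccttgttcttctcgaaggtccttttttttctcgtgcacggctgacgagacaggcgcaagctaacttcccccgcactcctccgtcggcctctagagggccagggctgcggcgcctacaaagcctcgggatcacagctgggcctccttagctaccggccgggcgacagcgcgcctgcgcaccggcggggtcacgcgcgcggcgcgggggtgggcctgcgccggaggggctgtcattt
VPS13D: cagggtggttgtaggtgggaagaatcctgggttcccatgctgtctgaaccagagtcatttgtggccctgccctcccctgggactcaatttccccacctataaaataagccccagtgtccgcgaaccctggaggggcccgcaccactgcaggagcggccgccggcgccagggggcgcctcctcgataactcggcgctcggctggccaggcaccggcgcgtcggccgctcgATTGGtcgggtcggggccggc
All 3 windows are GC-rich, at 72.0% in VPS13A and 67.2% in both VPS13C and VPS13D, in contrast to the GC contents of their transcripts. They share none of the boxes searched, since VPS13A holds 1 GC box, VPS13D holds 1 CCAAT box and VPS13C holds neither.

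Promoter windows were found for 46 of the 64 genes, with the first listed start taken for genes with several. A GC box stood in 67.4% of them, beside 66.4% of the windows of 8479 genes tested and 42.3% of all 27305 windows. A CCAAT box stood in 26.1% of them, beside 35.7% of genes tested and 33.0% of all windows. The E-box CACGTG, which reads the same on both strands, stood in 5 of 46 (10.9%), beside 9.12% of genes tested and 6.49% of all windows, and these were SNX8, VPS11, VPS37B, CHMP4A and VPS16. The CLEAR element of lysosome genes, searched as this E-box with GT before and AC after it, was in CHMP4A alone (2.17%, beside 0.719% of genes tested and 0.330% of all windows). A match describes letters and is not a binding site.

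**Figure D3:**
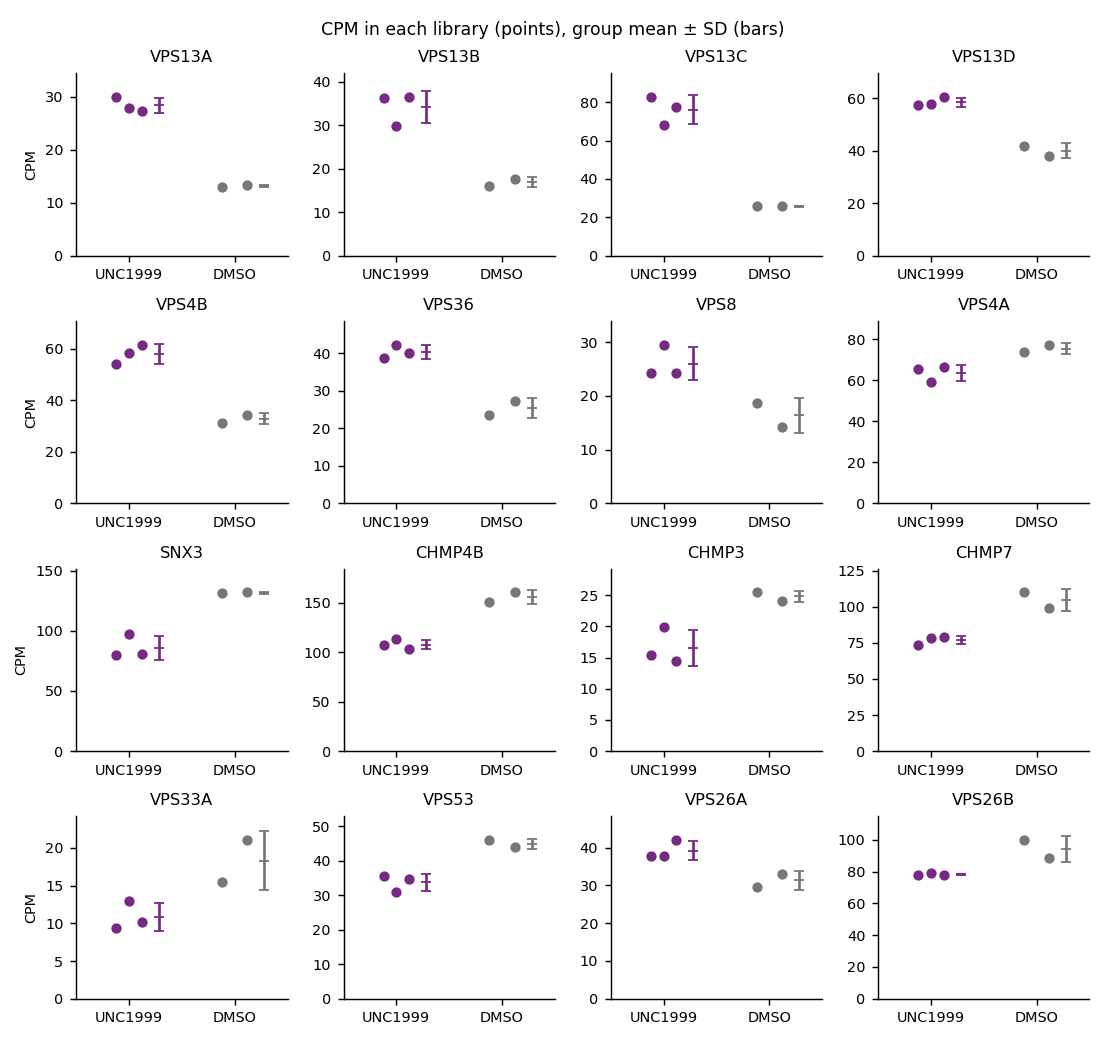
CPM (y axis) in each UNC1999 library (left) and each DMSO library (right) for 16 genes, with the mean ± SD beside the points. For VPS13A to VPS13D, VPS4B, VPS36, VPS8 and VPS26A every UNC1999 point lies above both DMSO points, and for SNX3, CHMP4B, CHMP3, CHMP7, VPS33A, VPS53, VPS4A and VPS26B every one lies below.

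Other genes for lipid transfer proteins of the same tube-like kind were on a list of 65 partner genes of the endosome pathway. ATG2B, which acts in autophagy, had 24.96, 23.2 and 25.9 CPM in UNC1999 and 9.06 and 11.5 CPM in DMSO. It rose with a log2 fold change of 1.26 ± 0.15 (adjusted p by edgeR = 1.16e-07) and of 1.03 with offsets (adjusted p by edgeR = 2.89e-07). KIAA1109, now also named BLTP1, had 26.3, 25.5 and 26.2 CPM in UNC1999, against 10.55 and 10.5 CPM in DMSO. Its log2 fold change was 1.31 ± 0.15 (adjusted p by edgeR = 3.13e-08), and 0.82 with offsets (adjusted p by edgeR = 6.28e-06). ATG2A, the relative of ATG2B, had 80.97, 60.2 and 88.75 CPM in UNC1999 and 54.8 and 60.999 CPM in DMSO, so that the groups overlapped. Its log2 fold change of 0.40 passed the test (adjusted p by edgeR = 0.0133), but not with offsets (0.14, adjusted p by edgeR = 0.23) nor when UNC1999 replicate 3, DMSO replicate 1 or DMSO replicate 2 was left out (adjusted p by edgeR = 0.108, 0.207 and 0.0534).

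Retromer, the complex of VPS35, VPS29 and either VPS26A or VPS26B that selects cargo for return from endosomes, had 1 called gene of 4, beside 35.2% of all genes tested called in either direction. VPS35, its scaffold, had 60.9, 70.2 and 61.8 CPM in UNC1999 and 59.97 and 61.7 CPM in DMSO, and VPS29 had 39.98, 42.6 and 39.7 CPM in UNC1999 and 38.99 and 41.1 CPM in DMSO. The groups overlapped for both genes, and neither passed the test (log2 fold change 0.080 ± 0.11 for VPS35 and 0.025 ± 0.12 for VPS29, adjusted p by edgeR = 0.631 and 0.894). With offsets both directions turned (-0.19 for VPS35 and -0.22 for VPS29). VPS26A had 37.8, 37.7 and 41.99 CPM in UNC1999, against 29.55 and 33.1 CPM in DMSO, a log2 fold change of 0.32 ± 0.12 (adjusted p by edgeR = 0.0408). This call was kept in 7 of 16 alternative fits, and was lost among others with offsets (0.15, adjusted p by edgeR = 0.299) and also when UNC1999 replicate 1, UNC1999 replicate 3, DMSO replicate 1 or DMSO replicate 2 was left out (adjusted p by edgeR = 0.0637, 0.159, 0.343 and 0.087). VPS26B had 78.03, 78.9 and 78.2 CPM in UNC1999 and 99.95 and 88.35 CPM in DMSO. All its UNC1999 libraries were below both DMSO libraries, but the log2 fold change of -0.26 ± 0.11 did not pass (adjusted p by edgeR = 0.0577, and 0.0157 without UNC1999 replicate 2).

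The retriever subunits VPS26C and VPS35L, relatives of VPS26 and VPS35, stood in the table under the older names DSCR3 and C16orf62 and were on the partner list. DSCR3 had 52.2, 55.4 and 49.7 CPM in UNC1999 and 67.9 and 72.5 CPM in DMSO (log2 fold change -0.42, adjusted p by edgeR = 0.00328). C16orf62 had 56.01, 62.6 and 52.8 CPM in UNC1999 and 74.75 and 73.01 CPM in DMSO (log2 fold change -0.37, adjusted p by edgeR = 0.00971). Both were lower in every UNC1999 library than in either DMSO library, and neither was called with offsets (-0.17 and -0.038, adjusted p by edgeR = 0.12 and 0.763). DSCR3 was not called when DMSO replicate 2 was left out (adjusted p by edgeR = 0.075), nor C16orf62 when UNC1999 replicate 3, DMSO replicate 1 or DMSO replicate 2 was left out (adjusted p by edgeR = 0.0703, 0.104 and 0.0667).

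Among the cargo of retromer, the sorting receptor gene SORT1 had 35.01, 38.9 and 39.3 CPM in UNC1999 and 63.8 and 60.2 CPM in DMSO, a log2 fold change of -0.72 ± 0.12 (adjusted p by edgeR = 8.64e-06) and -0.62 with offsets. The mannose 6-phosphate receptor gene IGF2R had 529, 490.5 and 533 CPM in UNC1999, against 809.5 and 709 CPM in DMSO, a log2 fold change of -0.55 and -0.50 with offsets (adjusted p by edgeR = 9.82e-05 without offsets). RAB7A, the GTPase that recruits retromer to late endosomes, had 333, 397 and 334 CPM in UNC1999 and 603 and 505 CPM in DMSO, a log2 fold change of -0.64 and -0.32 with offsets (adjusted p by edgeR = 2.41e-05 without offsets). SORT1, IGF2R and RAB7A were called lower in every alternative fit. SORL1, listed beside SORT1 and IGF2R among the partners, had positive fold changes but was called in no alternative fit that tested it. Its log2 fold change was 0.55 with offsets (adjusted p by edgeR = 0.395). It was 0.98 without DMSO replicate 1 and 0.090 without DMSO replicate 2. The stricter filter on low counts removed it. KIAA0196, a subunit of the WASH complex that nucleates actin on endosomes, had 26.1, 28.6 and 26.6 CPM in UNC1999 and 18.6 and 20.1 CPM in DMSO and rose (log2 fold change 0.48, adjusted p by edgeR = 0.00446), though not when DMSO replicate 1 was left out (adjusted p by edgeR = 0.0894). Of the 25 tested partners of the retromer, WASH and CCC complexes, 2 were called higher and 8 lower, beside 15.7% higher and 19.5% lower among all genes tested, and with offsets 2 of 24 were higher and 5 lower, beside 15.2% and 19.0%.

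Of the 24 sorting nexin genes 1 was called higher and 3 lower (4.17% and 12.5%), beside 15.7% higher and 19.5% lower among all genes tested. With offsets 3 were higher and 2 lower (12.5% and 8.33%), beside 15.2% and 19.0%. Of the 10 SNX-BAR genes, which encode membrane-bending partners of retromer and related coats, 1 was called higher and 9 were not called, with fold changes from -0.22 to 0.45 on the log2 scale. That gene was SNX2, with 11.9, 13.2 and 11.04 CPM in UNC1999 and 8.82 and 8.799 CPM in DMSO (log2 fold change 0.45 ± 0.17, adjusted p by edgeR = 0.0366). Its call was kept in 8 of 16 alternative fits, and was lost among others with offsets (0.35, adjusted p by edgeR = 0.0758) and when UNC1999 replicate 1, UNC1999 replicate 2, DMSO replicate 1 or DMSO replicate 2 was left out (adjusted p by edgeR = 0.0642, 0.0649, 0.164 and 0.158). SNX1, its close partner, had 32.1, 28.45 and 31.5 CPM in UNC1999 and 34.8 and 36.9 CPM in DMSO. It did not pass (log2 fold change -0.22, adjusted p by edgeR = 0.16). With offsets it did (-0.27, adjusted p by edgeR = 0.04), as in no other of the 16 alternative fits. SNX5 and SNX6, another pair that works with retromer, had log2 fold changes of 0.26 and 0.23 and did not pass (adjusted p by edgeR = 0.071 and 0.151), with 0.053 and 0.070 with offsets. SNX4, SNX7, SNX8, SNX18 and SNX30 were not called in either fit. SNX32 was called higher with offsets (0.31, adjusted p by edgeR = 0.000436) and without UNC1999 replicate 2 (adjusted p by edgeR = 0.00617). It shares exon bases with CFL1 on the opposite strand, as given below.

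SNX3, a small sorting nexin that works with retromer without a membrane-bending domain, fell. It had 79.95, 97.2 and 80.6 CPM in UNC1999, against 131 and 132 CPM in DMSO, or means of 85.9 ± 9.81 CPM in UNC1999 (SD, n = 3) and 132 ± 0.615 CPM in DMSO (SD, n = 2). UNC1999 replicate 2 was the highest of its group and still lay well below DMSO. The log2 fold change was -0.61 ± 0.11 (adjusted p by edgeR = 4.81e-05), and -0.47 ± 0.074 with offsets (adjusted p by edgeR = 4.34e-06), and SNX3 was called lower in each of the 16 alternative fits. SNX12, its closest relative, had 56.7, 62.1 and 49.3 CPM in UNC1999 and 79.7 and 69.8 CPM in DMSO. Its log2 fold change of -0.41 ± 0.12 (adjusted p by edgeR = 0.00533) was -0.041 with offsets (adjusted p by edgeR = 0.756), and its call was also lost when UNC1999 replicate 3 or DMSO replicate 1 was left out (adjusted p by edgeR = 0.0569 and 0.161).

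Among the FERM-type sorting nexins, which select cargo for recycling, SNX27 had 28.2, 27.7 and 32.5 CPM in UNC1999 and 39.6 and 36.15 CPM in DMSO (log2 fold change -0.36 ± 0.12, adjusted p by edgeR = 0.0218). Its call was kept in 9 of 16 alternative fits, and was lost among others with offsets (-0.26, adjusted p by edgeR = 0.0526) and when UNC1999 replicate 1, DMSO replicate 1 or DMSO replicate 2 was left out (adjusted p by edgeR = 0.095, 0.222 and 0.0581). SNX17 had 177, 147 and 170.2 CPM in UNC1999 and 144 and 145 CPM in DMSO, with a log2 fold change of 0.19 without offsets (adjusted p by edgeR = 0.191) and 0.35 with them (adjusted p by edgeR = 0.000235). The 3 genes with an RGS domain, SNX13, SNX14 and SNX25, had log2 fold changes of 0.44, 0.25 and 0.32, and none passed the test (adjusted p by edgeR = 0.0514, 0.168 and 0.113). Every UNC1999 library lay above both DMSO libraries for each, as for 24.2% of all genes tested. With offsets their values were -0.038, -0.083 and 0.13, so that the direction of SNX13 and SNX14 turned. SNX13 was called higher without UNC1999 replicate 1 (0.52, adjusted p by edgeR = 0.0386). SNX10, SNX11, SNX16, SNX20, SNX21, SNX22 and SNX29 were not called. Of these SNX11, with a log2 fold change of -0.044, was called higher with offsets (0.27, adjusted p by edgeR = 0.0187). Its direction thus turned, and it was called in no other of the 16 alternative fits.

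HOPS and CORVET share the subunits VPS11, VPS16, VPS18 and VPS33A, while VPS39 and VPS41 belong to HOPS, which tethers late endosomes and lysosomes, and VPS8 to CORVET, which tethers early endosomes. VPS33A, the subunit that clasps SNARE proteins, had 9.37, 12.97 and 10.2 CPM in UNC1999, against 15.5 and 21.05 CPM in DMSO. All UNC1999 libraries were below DMSO, whose replicate 2 was the highest. The log2 fold change, -0.75 ± 0.16, was the lowest of the family (adjusted p by edgeR = 0.000427), with -0.54 with offsets (adjusted p by edgeR = 0.0047). Without DMSO replicate 2 it was -0.52 and was not called (adjusted p by edgeR = 0.074). In GENCODE 29 VPS33A shares 1609 exon bases (21.5%) with the gene AC048338.1 on the same strand, for which the table gave no counts. VPS39 had 76.45, 75.8 and 69.9 CPM in UNC1999 and 105 and 91.8 CPM in DMSO (log2 fold change -0.41, adjusted p by edgeR = 0.00349), and VPS11 had 39.75, 40.9 and 43.5 CPM in UNC1999 and 54.1 and 50.5 CPM in DMSO (log2 fold change -0.34, adjusted p by edgeR = 0.0207). Neither was called with offsets (-0.14 and -0.064, adjusted p by edgeR = 0.168 and 0.625). VPS39 was not called when DMSO replicate 1 was left out (adjusted p by edgeR = 0.149), nor VPS11 when UNC1999 replicate 1, DMSO replicate 1 or DMSO replicate 2 was left out (adjusted p by edgeR = 0.101, 0.204 and 0.0686). The call of VPS11 was kept in 8 of 16 alternative fits.

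VPS8 rose, with 24.3, 29.5 and 24.2 CPM in UNC1999 and 18.75 and 14.15 CPM in DMSO. Its log2 fold change was 0.66 ± 0.15 (adjusted p by edgeR = 0.000534) and 0.57 with offsets (adjusted p by edgeR = 0.000514). Without DMSO replicate 2, its lowest library, it was 0.47 and was not called (adjusted p by edgeR = 0.0677). TGFBRAP1 of the partner list, the other subunit of CORVET that HOPS lacks, had 71.1, 69.65 and 69.3 CPM in UNC1999, against 114 and 91.8 CPM in DMSO. It fell, with a log2 fold change of -0.55 (adjusted p by edgeR = 0.000205) and -0.37 with offsets, and was not called when DMSO replicate 1 was left out (adjusted p by edgeR = 0.0601). VPS16, VPS18, VPS41 and VPS33B, the last a partner of VIPAS39 in another tether, were not called in either fit.

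GARP and EARP, tethers of carriers from endosomes, had 1 called gene of 4, beside 35.2% of all genes tested called in either direction. VPS53 had 35.7, 31.1 and 34.8 CPM in UNC1999 and 46.1 and 43.995 CPM in DMSO and fell (log2 fold change -0.41 ± 0.12, adjusted p by edgeR = 0.00683), with -0.35 with offsets (adjusted p by edgeR = 0.00402). It was not called when DMSO replicate 1 was left out (adjusted p by edgeR = 0.0925). VPS50, VPS51 and VPS54 had log2 fold changes of 0.29, 0.24 and 0.24 and did not pass (adjusted p by edgeR = 0.195, 0.126 and 0.175). With offsets they were -0.14, 0.10 and -0.092, so that the direction of VPS50 and VPS54 turned. Without UNC1999 replicate 2, the library that stood apart, VPS51 was called higher (0.39, adjusted p by edgeR = 0.000271).

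In the ESCRT pathway 4 of the 10 CHMP genes, which encode the filament, were called lower, beside 19.5% of all genes tested, and the other 6 were not called, while VPS4B, for an ATPase that takes the filament apart, rose. The median log2 fold change of the CHMP genes was -0.19. With offsets 5 of 10 were called lower, beside 19.0% of all genes, with a median of -0.20. CHMP4B, which forms the core of the filament, had the highest mean level per kb of the CHMP genes in both groups. In UNC1999 its range over libraries overlapped that of CHMP1A. CHMP4B had 107, 113 and 104 CPM in UNC1999, against 151 and 161 CPM in DMSO. The groups lay far apart, with a log2 fold change of -0.53 ± 0.11 (adjusted p by edgeR = 0.00019) and -0.25 with offsets (adjusted p by edgeR = 0.00737). CHMP3, another filament subunit, had 15.4, 19.8 and 14.45 CPM in UNC1999 and 25.45 and 24.1 CPM in DMSO. Its log2 fold change was -0.58 ± 0.14 (adjusted p by edgeR = 0.00156), and -0.52 with offsets (adjusted p by edgeR = 0.000881), and it was called lower in each of the 16 alternative fits. It shares 760 exon bases (10.8%) with the read-through gene RNF103-CHMP3, which had 5, 5 and 13 counts in UNC1999 and 10 and 11 in DMSO.

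CHMP7, which brings the filament to the nuclear envelope, had 73.6, 78.3 and 79.3 CPM in UNC1999 and 110.01 and 99.3 CPM in DMSO. The groups did not overlap, and the log2 fold change was -0.44 ± 0.11 (adjusted p by edgeR = 0.00166) and -0.20 with offsets (adjusted p by edgeR = 0.0473), with no call when DMSO replicate 1 was left out (adjusted p by edgeR = 0.0813). CHMP5, which binds the VPS4 cofactor VTA1, had 37.15, 39.7 and 33.8 CPM in UNC1999 and 44.3 and 47.7 CPM in DMSO. Its GC content is 39.9%, and its log2 fold change was further below 0 with offsets, at -0.55 ± 0.092 (adjusted p by edgeR = 1.4e-05), than without, at -0.32 ± 0.12 (adjusted p by edgeR = 0.0358). Its call was kept in 5 of 16 alternative fits, and the fits with offsets were among these 5. It was lost with DESeq2 size factors in edgeR, without normalization factors and with upper-quartile factors (adjusted p by edgeR = 0.0618, 0.186 and 0.11). It was also lost with no filter or a stricter filter on low counts (adjusted p by edgeR = 0.0635 and 0.0707), by DESeq2 (adjusted p = 0.103) and when UNC1999 replicate 1, UNC1999 replicate 3, DMSO replicate 1 or DMSO replicate 2 was left out (adjusted p by edgeR = 0.0913, 0.169, 0.0987 and 0.249). CHMP1A, CHMP1B, CHMP2A, CHMP2B, CHMP4A and CHMP6 were not called. Of these CHMP2B was called lower with offsets (-0.33, adjusted p by edgeR = 0.049), as in no other of the 16 alternative fits.

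VPS4B and VPS4A encode the ATPases that disassemble the filament. VPS4B had 53.98, 58.4 and 61.7 CPM in UNC1999, against 31.4 and 34.5 CPM in DMSO. All UNC1999 libraries were well above DMSO, with a log2 fold change of 0.82 ± 0.12 (adjusted p by edgeR = 2.86e-06) and 0.55 with offsets (adjusted p by edgeR = 2.55e-05), and VPS4B was called higher in each of the 16 alternative fits. VPS4A had 65.6, 59.3 and 66.45 CPM in UNC1999 and 73.6 and 77.4 CPM in DMSO, below DMSO in all 3 libraries, without passing the test (log2 fold change -0.24, adjusted p by edgeR = 0.0868), and its value with offsets was -0.033 (adjusted p by edgeR = 0.794). The log2 ratio of VPS4B to VPS4A counts, which holds no offsets, was -0.28, -0.021 and -0.11 in UNC1999 and -1.23 and -1.17 in DMSO. The difference of 1.06 gave an exact two-sided permutation p of 0.1 (0.167 adjusted over 5 pairs of related genes), the smallest that 3 libraries against 2 allow. In VPS4A 1245 exon bases (21.96%) are also exons of COG8 on the opposite strand, and with no strand setting stated the reads of the pair cannot be told apart. The log2 ratio of VPS26A to VPS26B differed by 0.59 and that of VPS33A to VPS33B by -0.76, each with the same smallest p. VPS33B had few counts, as given below, and the DMSO libraries were apart in its ratio (3.64 and 3.01). VPS33B also shares 52.1% of its exon bases with AC068831.7 on the same strand, and VPS26B shares 249 exon bases (3.84%) with NCAPD3 on the opposite strand. The pairs CHMP1A to CHMP1B (0.29, exact permutation p = 0.4) and CHMP2A to CHMP2B (-0.13, exact permutation p = 0.9) had libraries that overlapped between groups.

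The windows before the starts of VPS4B, called higher, and of SNX3, CHMP4B and CHMP5, called lower, are shown in the same way. They set genes of opposite direction beside each other, though the call of CHMP5 was kept in only 5 of 16 alternative fits. VPS4B is at chr18:63422477-63422726 on the minus strand, SNX3 at chr6:108261041-108261290 on the minus strand, CHMP4B at chr20:33811098-33811347 on the plus strand and CHMP5 at chr9:33264799-33265048 on the plus strand.
VPS4B: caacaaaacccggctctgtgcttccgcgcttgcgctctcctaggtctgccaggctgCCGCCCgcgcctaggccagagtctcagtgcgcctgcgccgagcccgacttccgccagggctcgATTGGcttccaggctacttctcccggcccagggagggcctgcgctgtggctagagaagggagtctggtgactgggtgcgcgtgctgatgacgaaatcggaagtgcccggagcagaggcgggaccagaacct
SNX3: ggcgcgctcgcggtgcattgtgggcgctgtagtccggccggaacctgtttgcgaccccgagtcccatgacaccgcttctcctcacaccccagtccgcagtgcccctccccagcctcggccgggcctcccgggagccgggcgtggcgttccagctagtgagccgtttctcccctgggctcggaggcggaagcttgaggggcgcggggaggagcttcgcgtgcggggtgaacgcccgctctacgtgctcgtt
CHMP4B: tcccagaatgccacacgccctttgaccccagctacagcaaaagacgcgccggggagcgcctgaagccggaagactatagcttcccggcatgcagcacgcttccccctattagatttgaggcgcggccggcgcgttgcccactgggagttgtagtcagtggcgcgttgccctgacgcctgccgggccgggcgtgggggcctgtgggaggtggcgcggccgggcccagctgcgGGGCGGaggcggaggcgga
CHMP5: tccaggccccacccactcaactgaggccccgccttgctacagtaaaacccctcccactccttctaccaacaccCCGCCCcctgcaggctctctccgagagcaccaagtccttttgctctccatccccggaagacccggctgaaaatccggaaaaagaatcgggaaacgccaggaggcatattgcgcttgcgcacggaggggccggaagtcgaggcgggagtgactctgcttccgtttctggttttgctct
Their GC contents are 66.4% in VPS4B, 70.8% in SNX3, 69.6% in CHMP4B and 60.0% in CHMP5. VPS4B, CHMP4B and CHMP5 hold 1 GC box each, VPS4B also holds 1 CCAAT box, and SNX3 holds neither. A GC box stood in 5 of 7 windows of genes called higher and in 5 of 7 of genes called lower.

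Upstream of the filament, ESCRT-I gathers ubiquitin-marked cargo and ESCRT-II links it to the CHMP proteins. VPS36, the ESCRT-II subunit that binds ubiquitin, rose, with 38.6, 42.3 and 40.05 CPM in UNC1999 and 23.6 and 27.35 CPM in DMSO. Its log2 fold change was 0.66 ± 0.13 (adjusted p by edgeR = 0.000103) and 0.36 with offsets (adjusted p by edgeR = 0.0065), and it was called higher in each of the 16 alternative fits. VPS25, another ESCRT-II subunit, had 132, 107 and 129 CPM in UNC1999 and 120.1 and 115 CPM in DMSO, which overlap (log2 fold change 0.064, adjusted p by edgeR = 0.702), and was called higher with offsets (0.29, adjusted p by edgeR = 0.00437). The ESCRT-I genes VPS28, VPS37A, VPS37B and VPS37C had log2 fold changes from -0.11 to 0.16 and were not called in either fit, with values from -0.33 to 0.15 with offsets. VPS28 had 51.04, 33.6 and 49.04 CPM in UNC1999 and 39.5 and 41.85 CPM in DMSO, with UNC1999 replicate 2 below both DMSO libraries and the other UNC1999 libraries above them. Without that library its log2 fold change was 0.31, against 0.13 with it, and it was called higher (adjusted p by edgeR = 0.011). VPS45, a regulator of endosomal SNARE proteins, had 17.7, 21.6 and 17.4 CPM in UNC1999 and 15.02 and 19.3 CPM in DMSO (log2 fold change 0.14, adjusted p by edgeR = 0.498) and was called higher with offsets (0.41, adjusted p by edgeR = 0.0121). VPS72 carries the name but encodes a histone chaperone of chromatin remodelling complexes, and it was not called (log2 fold change -0.16, adjusted p by edgeR = 0.303, and 0.14 with offsets).

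Of 14 ESCRT partner genes 5 were called higher and 2 lower, beside 15.7% higher and 19.5% lower among all genes tested, and with offsets 1 was higher and 3 were lower, beside 15.2% and 19.0%. IST1, a CHMP-like filament protein, had 141, 148 and 127 CPM in UNC1999, against 197 and 204 CPM in DMSO (log2 fold change -0.53, adjusted p by edgeR = 0.000193), with -0.52 with offsets (adjusted p by edgeR = 3.76e-07). UBAP1, an ESCRT-I subunit, had 57.9, 67.3 and 62.01 CPM in UNC1999 and 100.2 and 89.1 CPM in DMSO (log2 fold change -0.60, adjusted p by edgeR = 6.82e-05), with -0.23 with offsets (adjusted p by edgeR = 0.0262). Both were below DMSO in every UNC1999 library. USP8, an endosomal deubiquitinase, had 65.8, 63.55 and 66.7 CPM in UNC1999 and 38.6 and 43.8 CPM in DMSO, and its log2 fold change of 0.67 (adjusted p by edgeR = 3.33e-05) was 0.079 with offsets (adjusted p by edgeR = 0.531).

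Of 24 tested genes of tethering and of phosphatidylinositol 3-phosphate, the lipid that SNX proteins bind on endosomes, 10 were called higher and 6 lower, beside 15.7% higher and 19.5% lower among all genes tested. With offsets 5 were higher and 4 lower (20.8% and 16.7%), near the 15.2% and 19.0% of all genes. PIKFYVE, the kinase that converts this lipid, had 33.2, 32.4 and 34.7 CPM in UNC1999 and 15.4 and 14.5 CPM in DMSO (log2 fold change 1.16, adjusted p by edgeR = 6.67e-08), with 0.77 with offsets (adjusted p by edgeR = 2.88e-06). MTM1, a phosphatase that removes it, had 9.26, 10.4 and 12.1 CPM in UNC1999 and 4.59 and 5.11 CPM in DMSO (log2 fold change 1.12, adjusted p by edgeR = 4.03e-05), with 0.82 with offsets (adjusted p by edgeR = 0.00114). The kinase and the phosphatase thus both rose, and they were called in every alternative fit. Over all 63 partners tested 17 (27.0%) were called higher and 16 (25.4%) lower, beside 15.7% higher and 19.5% lower among all genes tested. With offsets 8 and 12 of 62 were (12.9% and 19.4%), near the 15.2% and 19.0% of all genes.

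Levels were compared between genes per kb of merged exons in GENCODE 29, which can differ from the authors' annotation. SNX32 was the highest, with 246 CPM per kb in UNC1999 and 224 in DMSO, and it alone held 20.7% to 23.1% of the counts of the family in UNC1999 and 20.3% and 20.4% in DMSO. It shares 357 exon bases with CFL1, the gene of cofilin, on the opposite strand, which had 14184 to 16176 counts in UNC1999 and 12697 and 14064 in DMSO. SNX22, with 80.6 CPM per kb in UNC1999 and 90.6 in DMSO, shares 519 exon bases with PPIB on the opposite strand, which had 5362 to 5602 counts in UNC1999 and 5531 and 6225 in DMSO. With no strand setting stated, the levels of SNX32 and SNX22 are uncertain. Exons are also shared to a large part in CHMP4A (68.8% with AL096870.2, same strand), VPS33B (52.1% with AC068831.7, same strand), SNX20 (49.8% with an antisense gene), VPS72 (40.5% with TMOD4, same strand) and SNX21 (36.6% with ACOT8, opposite strand). CHMP4B had 65.6 CPM per kb in UNC1999 and 94.6 in DMSO, SNX3 had 46.6 CPM per kb in UNC1999 and 71.4 in DMSO, and CHMP1A had 62.5 CPM per kb in UNC1999 and 53.4 in DMSO. In DMSO the ranges of these 3 genes did not overlap, while in UNC1999 that of CHMP1A, 53.2 to 70.55, overlapped that of CHMP4B, 62.97 to 68.7.

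VPS4B had 13.45 CPM per kb in UNC1999 and 7.64 in DMSO and ranked 21 of 64 in UNC1999 and 30 in DMSO, and VPS4A had 11.25 CPM per kb in UNC1999 and 13.3 in DMSO and ranked 25 in UNC1999 and 21 in DMSO. The VPS13 genes were in the lower part of the order. VPS13D had 2.82 CPM per kb in UNC1999 and 1.93 in DMSO, VPS13C had 3.86 CPM per kb in UNC1999 and 1.31 in DMSO, VPS13B had 2.05 CPM per kb in UNC1999 and 1.01 in DMSO and VPS13A had 1.403 CPM per kb in UNC1999 and 0.6525 in DMSO. In UNC1999 VPS13C was the highest of the 4, with a lowest library of 3.45 CPM per kb against a highest of 2.91 for VPS13D, and in DMSO VPS13D was the highest, with a lowest library of 1.83 against a highest of 1.32 for VPS13C.

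**Figure D4:**
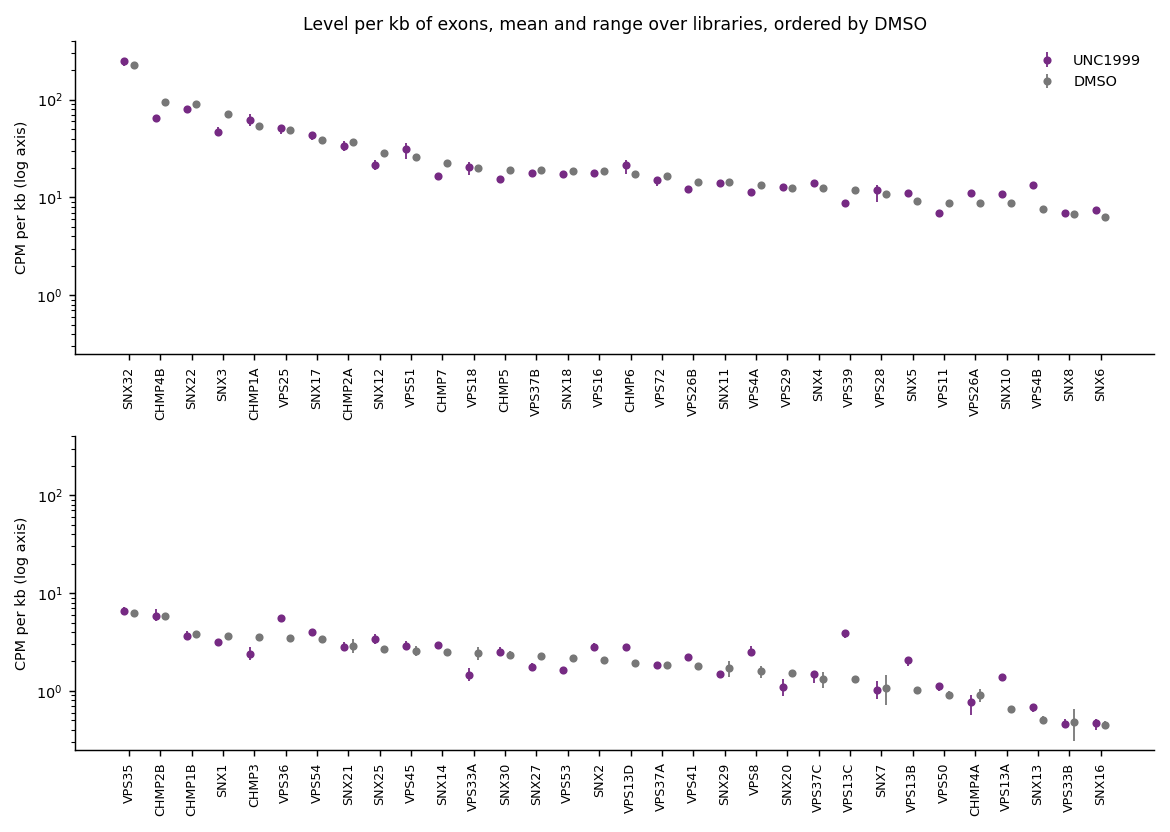
CPM per kb of merged exons (y axis, log scale) for the 64 genes, ordered by their mean in DMSO; points are group means, with UNC1999 left of DMSO, and lines the range over libraries. The UNC1999 mean lies well above the DMSO mean for VPS4B and VPS13C and below it for CHMP4B, SNX3 and VPS33A.

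The count rule left out 9 rows. Just inside it, SNX16 had 20, 17 and 21 counts in UNC1999 and 15 and 19 in DMSO, VPS33B had 15, 19 and 15 counts in UNC1999 and 10 and 22 in DMSO, SNX7 had 15, 24 and 18 counts in UNC1999 and 12 and 25 in DMSO and CHMP4A had 12, 20 and 18 counts in UNC1999 and 15 and 21 in DMSO. Just outside, SNX15 had 2, 7 and 14 counts in UNC1999 and 6 and 6 in DMSO, and SNX33 had 6, 6 and 6 counts in UNC1999 and 5 and 4 in DMSO. SNX9 and SNX31 never exceeded 3 counts, and CHMP4C, SNX19, SNX24, VPS37D and VPS52 were listed at 0 in all 5 libraries. A 0 in this table does not show that a gene has no RNA, since the ribosomal protein gene RPS18, which every cell uses, had 1, 0 and 0 counts in UNC1999 and 0 and 0 in DMSO. A row named SNX19P2, for a pseudogene of SNX19, had 93, 113 and 91 counts in UNC1999 and 111 and 92 in DMSO. How reads of near-identical copies were assigned was stated in no source used here.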

How the data were processed

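NK92MI cells had 3 UNC1999 and 2 DMSO libraries. The authors deposited raw read counts per gene symbol in a single table. Tools named, per the submitters' processing notes, were edgeR 3.34.0, HTSeq 0.13.5, STAR 2.7.9 and fastp, with the build hg19 and no roles; settings, strand and annotation were not given in the sources used. Columns were matched to samples by name. A count of 0 allows up to 3 counts (0.343 to 0.355 CPM), counting error only. Members, lists and alternatives were chosen with earlier results of these data known.

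Genes passing filterByExpr (13075, all 64 members included) were fitted with glmQLFit and tested by the quasi-likelihood F of edgeR 4.0.16 (R 4.3.3) with TMM factors, Benjamini-Hochberg adjusted over all genes, called under 0.05. SE is the log2 fold change over the root of F. GC content and length came from the longest GENCODE 29 transcript (86.0% of genes tested); offsets were splines (6 and 4 degrees of freedom) of each library's deviation in log2 CPM (prior count 2). limma 3.58.1 and DESeq2 1.42.0 were alternatives. The steps were also run on simulated data, and the outcome is not given here. Symbols on more than 1 row (222 symbols, 1939 rows) were kept as separate rows. Promoter windows were RefSeq sequences.

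The text names VPS13A to VPS13D, the retromer core, the called gene with the smallest p per role and direction (with none called, the most abundant) and the 4 highest and 4 lowest fold changes. Other genes are named to account for all members or were chosen from the partner list after their values were seen. The summed level of the B cell marker list is not reported here.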

Additional observations from a re-analysis of the deposited data

How the results depend on the processing

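Of the 9 genes called higher, 6 were called in every one of the 16 alternative fits (VPS13A, VPS13B, VPS13C, VPS13D, VPS4B and VPS36). Of the 11 called lower, 2 were (SNX3 and CHMP3). How many calls over all genes held in every fit was not counted, so these counts are no result about the family. CHMP4B missed only with offsets and a replicate block together (-0.23, adjusted p by edgeR = 0.0502). CHMP7 also missed in that fit (adjusted p by edgeR = 0.0973), and CHMP5 and VPS26A missed with the block alone (adjusted p by edgeR = 0.155 and 0.148). The count of members called higher was 19 without normalization factors, 16 with upper-quartile factors, 14 with a stricter filter (a mean count of 50 and 1 CPM in 2 libraries) and 6 to 16 with a library left out. The count called lower was 6 with offsets and a replicate block and 4 to 13 with a library left out. The median of the members was 0.12 without factors, 0.089 with upper-quartile factors, 0.066 with the stricter filter, -0.016 with offsets and a block and -0.0086 to 0.079 with a library left out. The partner counts were 8 higher with offsets, 5 higher and 10 lower with offsets and a block, 10 higher at an adjusted p under 0.01, 9 lower without factors, and 8 to 20 higher and 8 to 18 lower with a library left out. Over all genes 1141 were higher and 1592 lower with offsets and a block, and 1158 to 2862 higher and 1367 to 3030 lower with a library left out. The cause of these shifts was not tested. No label says whether libraries of the same replicate number belong together. Deviations of same-numbered libraries from their group means correlated at 0.066 and 0.038. These values cannot settle it, since the deviations of the 2 DMSO libraries mirror each other. The replicate block alone gave 8 members higher and 10 lower, and 13 and 14 partners. UNC1999 replicate 3 has no DMSO library of its number. It stood alone in its block, and did not inform the fold change in the fits with a block. The fit with the block alone thus largely repeats the fit without UNC1999 replicate 3, and the 16 alternative fits are not separate checks. Genes with about 20 counts per library (SNX7, SNX16, VPS33B and CHMP4A) had standard errors of 0.33 to 0.37 on the log2 scale, against 0.11 for SNX3, so their changes were not resolved at this depth.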
